A study of Caenorhabditis elegans with 53 samples.

Results

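Short RNA reads that the authors assigned to microRNA hairpins were compared between GFP::RDE-1 co-immunoprecipitates (co-IPs) and the lysates they were made from (inputs) in Caenorhabditis elegans. A row was taken where its class was pre-miRNA and its mean over the 4 libraries was at least 1 RPM (reads scaled to library size by the authors). This gave 110 of the 260 precursor rows. The table held 26180 rows in all. The animals carried rde-1(cmp133), an allele that puts GFP and a FLAG tag on RDE-1 at its own locus, and both the co-IPs and the inputs were labelled as treated with pyrophosphohydrolase, an enzyme that shortens 5′ triphosphates to monophosphates and so opens such RNAs to ligation. They were gravid adult hermaphrodites, taken whole after 72 to 75 h of growth from L1 larvae at 20 degrees C. Each group had 2 libraries, and nothing in the labels says whether they came from separate cultures, so the p-values measure only the spread between these libraries. In the inputs the embryonic miR-35-3p stood at 15777 and 15380 RPM, let-7-5p of the hypodermis at 1581 and 1541 RPM and the muscle microRNA miR-1-3p at 8970 and 9688 RPM, so markers of embryo, hypodermis and muscle were all present in the labelled whole adults.

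MicroRNAs are made from hairpin transcripts. Drosha releases the hairpin, Dicer cuts off its loop, and the resulting duplex of a 5p and a 3p arm gives up a guide strand to an Argonaute protein. In C. elegans the usual microRNA Argonautes are ALG-1 and ALG-2, while RDE-1 is the Argonaute that receives small interfering RNAs cut by Dicer from long double-stranded RNA during RNA interference (RNAi). The RNA had been size-selected at about 16 to 30 nt, so a precursor row cannot hold reads of whole hairpins. Which short reads the authors gave to a hairpin rather than to its arms is not given in the sources used here.

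The names mir-5592 and mir-8199 also appear in the authors' class of single sequences called 23H-RNAs, which is shown because it holds the reads themselves. The authors chose that list, so its enrichment is no independent evidence. The 5 most abundant mir-5592 sequences of the class, on chromosome X, follow with the stretch of 17 nt that they share in capitals.
mir-5592 sequence 1: tgTATTAAACGGTAAGGGCcggc
mir-5592 sequence 2: catgTATTAAACGGTAAGGGCc
mir-5592 sequence 3: TATTAAACGGTAAGGGCcggctg
mir-5592 sequence 4: catgTATTAAACGGTAAGGGC
mir-5592 sequence 5: tgTATTAAACGGTAAGGGCcgg
The leading sequence of the opposite strand follows, with the bases complementary to sequence 1 in capitals.
mir-5592 opposite strand: CGGCCCTTACCGTTTAATACAtg

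Sequence 1 stood at 8202 and 10578 RPM in the co-IPs against 43.3 and 43.9 RPM in the inputs. The opposite strand stood at 66.5 and 93.9 RPM against 0.48 and 0.36 RPM. Both strands were thus far higher in both co-IPs. Sequence 1 and the opposite strand are complementary over 21 nt, which leaves 2 nt unpaired at each 3′ end. Such 3′ overhangs are typical of Dicer products. Of the 39 sequences of the class named mir-5592, 25 lay on the strand of sequence 1 and 14 on the other, and the latter made up 0.818% of their summed RPM in each co-IP. Sequences of 23 nt held 84.3% of the co-IP RPM of the 39.

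A pair of sequences that the table names for both mir-8199 and the gene C40A11.10, on chromosome II, stood at a much lower level, and which of them was the source cannot be told apart. The sequences are shown with their complementary 20 nt in capitals.
mir-8199 sequence 1: CATTCCTACGACATGGAGGTccc
mir-8199 opposite strand: ACCTCCATGTCGTAGGAATGct
Sequence 1 of mir-8199 stood at 4.39 and 3.87 RPM in the co-IPs against 0 and 0.05 RPM in the inputs. Its precursor row held 14.5 and 18.8 RPM in the co-IPs against 10.2 and 11.04 RPM in the inputs, a difference of 0.59 ± 0.17 on the log2(RPM + 1) scale (limma adjusted p = 0.017). The summed mature arms of mir-8199 went the other way at very low values, with 0.27 and 0.65 RPM in the co-IPs against 1.83 and 1.05 RPM in the inputs.

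All precursor rows together held 6755 and 6392 RPM in the co-IPs against 2063 and 1925 RPM in the inputs. The mature arms held 641927 and 518820 RPM against 210627 and 187680 RPM. Precursor rows therefore amounted to 1.05 and 1.23 RPM per 100 RPM of mature arms in the co-IPs, against 0.98 and 1.03 in the inputs. One RPM stood for about 14.6 to 21.9 reads in these libraries, as judged from the steps between low values. Of the 110 rows, 80 had a mean of at least 1 RPM in both groups, 25 passed only through the co-IPs and 5 only through the inputs. The members nearest the limit were mir-245 at 1.05, mir-4814 at 1.06 and mir-358 at 1.08 RPM, and the nearest rows left out were mir-791 at 0.93, mir-8186.2 at 0.80 and mir-53 at 0.79 RPM.

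Against input, 75 of the 110 precursor rows were higher in the RDE-1 co-IP and 14 were lower (limma, Benjamini-Hochberg adjusted p under 0.05 over all 9046 rows tested). Of all rows tested, 6.94% were higher and 87.2% were lower. The median difference of the precursor rows was 1.04 on the log2(RPM + 1) scale, while that of all rows was -1.87. Both co-IP libraries exceeded both inputs in 87 precursor rows, against 7.33% of all rows, and both were below in 18, against 89.9%. Among the 80 rows with at least 1 RPM in both groups, 54 were higher and 11 were lower. The direction depended on the reference chosen. When each library was rescaled to the same sum of mature microRNAs, 27 precursor rows were higher and 41 lower, with the median of all rows at -3.19, and when libraries were centred on their medians 96 were higher and 4 lower, with that median at -0.09. RPM here is a share of a library, so an RPM difference does not give an amount per cell or per immunoprecipitated protein.

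**Figure D1:**
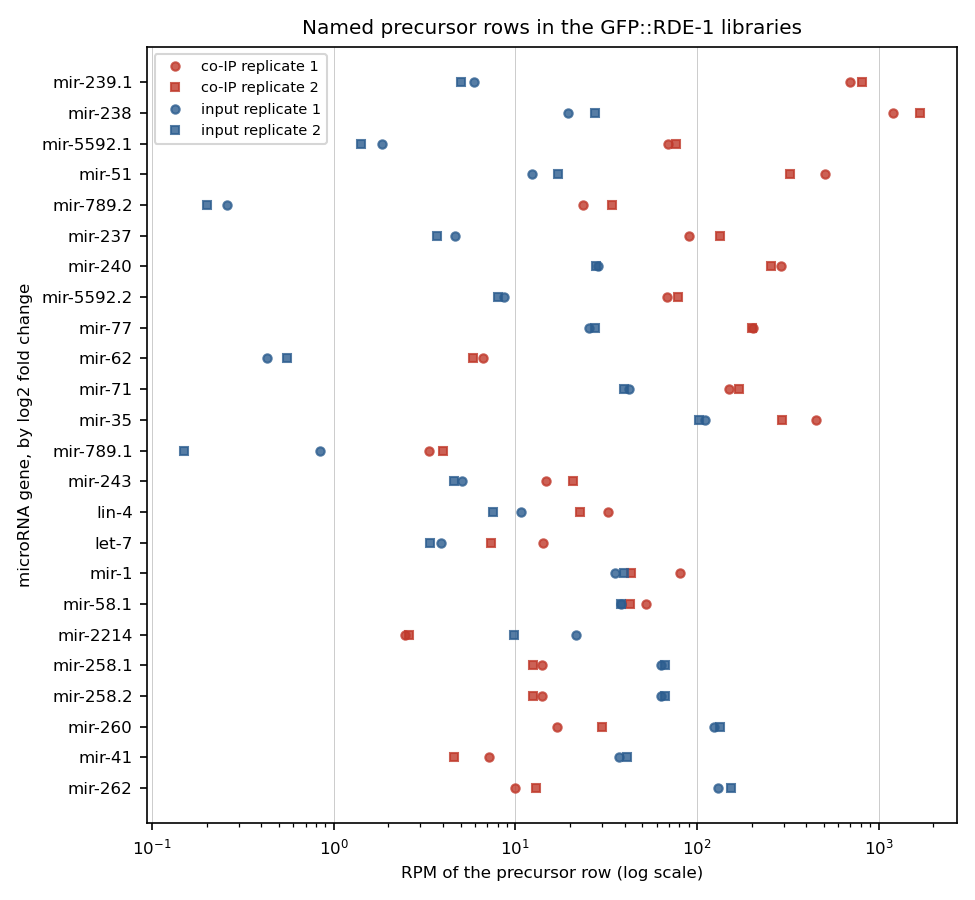
RPM of each named precursor row (vertical axis, ordered by log2 fold change) in the 2 co-IP libraries (red) and 2 inputs (blue), on a logarithmic horizontal axis, with 1 point per library. The top row is mir-239.1, at 699 and 814 RPM in the co-IPs, and the bottom row is mir-262, at 10.0 and 13.0 RPM.

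The highest precursor rows in the co-IPs were those of mir-238 and mir-239.1. The mir-238 row held 1209 and 1696 RPM in the co-IPs against 19.6 and 27.6 RPM in the inputs. The mir-239.1 row held 699 and 814 RPM against 5.93 and 5.02 RPM. Neither row overlapped between groups, and the differences were 5.88 ± 0.23 and 6.87 ± 0.14 on the log2(RPM + 1) scale (limma SE; adjusted p = 4.98e-05 for both). Together these rows made up 33.8% of the mean member RPM of the co-IPs but 1.47% of that of the inputs. Without them, the precursor rows came to 0.751 and 0.742 RPM per 100 RPM of mature arms in the co-IPs, against 0.961 and 1.00 in the inputs.

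The mature arms of these hairpins did not move alike. For mir-238, whose microRNA miR-238 is made mostly from the 3p arm, miR-238-3p rose from 1205 and 1861 RPM in the inputs to 21846 and 27230 RPM in the co-IPs, a difference of 4.02 ± 0.29. For mir-239.1, miR-239a-5p stood at 57.96 and 37.8 RPM in the co-IPs against 18.1 and 11.5 RPM in the inputs (1.63 ± 0.29, adjusted p = 0.0022). The other arm, miR-239a-3p, was lower in the co-IPs, at 10.96 and 7.32 RPM against 18.6 and 18.2 RPM (-0.96 ± 0.20, adjusted p = 0.0052). The mir-239.1 precursor row thus exceeded its summed arms in the co-IPs, at 1327 RPM per 100 RPM of arms, while in the inputs it stood at 16.5 per 100.

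The precursor row was set against the summed arms of the same microRNA in 90 microRNAs where both had a mean of at least 1 RPM. The median precursor row held 1.00 RPM per 100 RPM of arms in the co-IPs against 0.990 in the inputs, and it exceeded its arms in the co-IP means of 5 microRNAs and in the input means of 3. The ratio of precursor to arms was higher in the co-IP in 7 microRNAs, or 7.78% of those tested, and lower in 18, or 20.0% (limma on the log2 ratio, adjusted p under 0.05 over the 90). Without input replicate 1 these counts were 3 and 16, and without co-IP replicate 1 they were 13 and 27. Without input replicate 2 they were 4 and 17, and without co-IP replicate 2 they were 9 and 29. With a pseudocount of 0.1 in place of 1, the ratio was higher in 7 and lower in 13. The pseudocount weighs most on microRNAs whose precursor row had an input mean below 1 RPM. Among the 18 lower ratios these are mir-62, mir-232, mir-358, mir-789.1, mir-789.2, mir-790, mir-793, mir-1830, mir-4814 and mir-5553. Across the 90 microRNAs the co-IP difference of the precursor row had a Spearman correlation of 0.63 and a Pearson correlation of 0.57 with that of the summed arms. This is a description over microRNAs that share the same 4 libraries, not over independent samples.

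**Figure D2:**
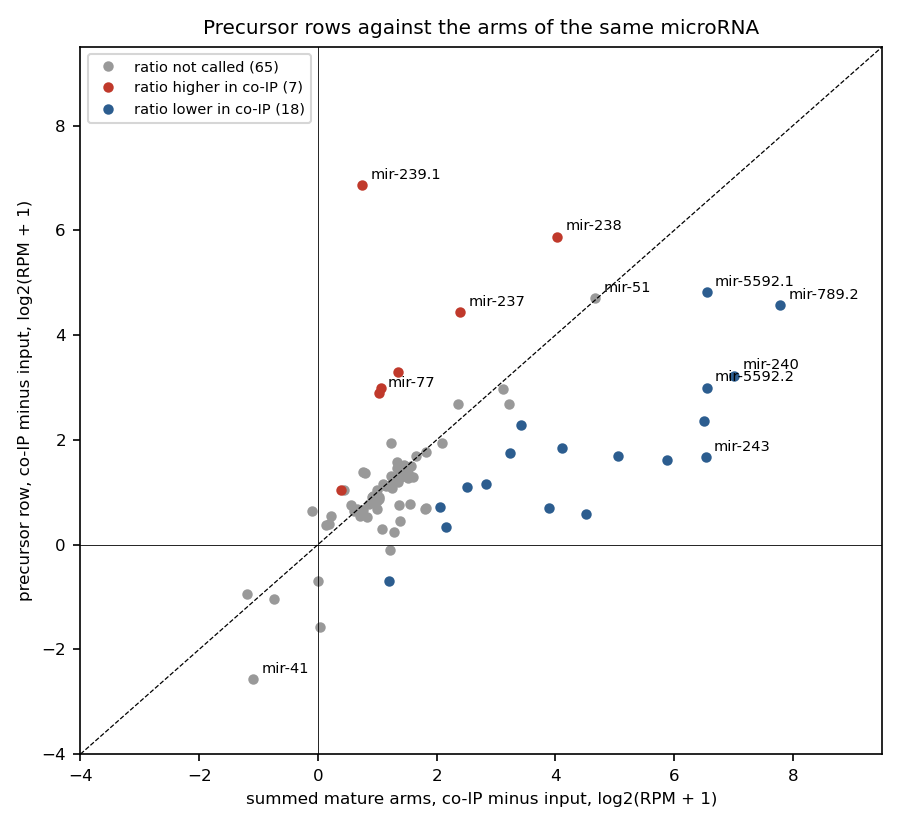
Difference between co-IP and input, in log2(RPM + 1), of the precursor row (vertical axis) against that of the summed mature arms (horizontal axis), with 1 point for each of 90 microRNAs and a dashed line where both are equal. The 7 red points have a higher log2(RPM + 1) ratio of precursor to arms in the co-IP, and the 18 blue points a lower one. The precursor row of mir-239.1 is highest, at 6.87. Because 1 RPM was added to both parts, a lower ratio need not mean a lower precursor share. For mir-62, a blue point, the share per 100 RPM of arms was 0.590 RPM in the co-IPs and 0.498 RPM in the inputs.

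Precursor rows outran their arms in mir-239.1, mir-238, mir-237, mir-77, mir-1822, mir-2219 and mir-259. The ratio rose by 6.13 ± 0.32 on the log2 scale for mir-239.1 (adjusted p = 0.0012) and by 1.85 ± 0.14 for mir-238 (adjusted p = 0.0020). The mir-237 row, from a relative of lin-4, held 90.5 and 134.7 RPM in the co-IPs against 4.63 and 3.72 RPM in the inputs, a difference of 4.43 ± 0.22. Its arm miR-237-5p rose by 2.39 ± 0.15, and the ratio by 2.04 ± 0.23 (adjusted p = 0.0047). The mir-77 row held 204.8 and 201.6 RPM against 25.6 and 27.6 RPM, with a ratio difference of 1.86 ± 0.37 (adjusted p = 0.029), which missed the threshold without either input library, at adjusted p = 0.105 and 0.0995. Of the arms of mir-77, miR-77-3p rose by 1.10 ± 0.36 while miR-77-5p fell by 2.29. The microRNAs mir-1822, mir-2219 and mir-259 were picked out after their values were seen. In mir-2219 the inputs were near 0 for both parts of the ratio, at 0 and 0.18 RPM for the precursor row and 0.14 and 0.14 RPM for the summed arms, so its ratio rests on the pseudocount there. The mir-259 row held 3.15 and 2.80 RPM against 1.11 and 0.78 RPM, with a ratio difference of 0.64 ± 0.14 (limma adjusted p = 0.038). The rows of mir-2219 and mir-259 had input means below 1 RPM and became members only through the co-IPs. The direction of both precursor rows was thus fixed by the choice of rows. In mir-1822 the precursor row held 53.4 and 52.6 RPM against 7.81 and 4.24 RPM, above its summed arms in the co-IPs.

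Arms outran their precursor rows in several microRNAs whose arms were strongly enriched with RDE-1. The mir-243 row, whose microRNA miR-243 is known as an RDE-1 cargo, held 14.7 and 20.9 RPM in the co-IPs against 5.06 and 4.61 RPM in the inputs (1.67 ± 0.20). Its arm miR-243-3p went from 22.6 and 26.6 RPM to 1545 and 3729 RPM (6.56 ± 0.41), and the ratio differed by -4.86 ± 0.33 (adjusted p = 0.0019). The mir-240 row held 292.1 and 254.7 RPM against 28.6 and 27.9 RPM (3.23 ± 0.12). Of its arms, miR-240-5p rose from 62.7 and 65.9 RPM to 8773 and 16913 RPM (7.54 ± 0.32), while miR-240-3p rose by 1.75 ± 0.36. The precursor share of mir-240 fell accordingly, from 29.8 RPM per 100 RPM of arms in the inputs to 2.11 in the co-IPs (ratio -3.78 ± 0.42, adjusted p = 0.0047).

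The mir-789 and mir-5592 loci followed the same order. The mir-789.2 row held 23.5 and 34.1 RPM in the co-IPs against 0.26 and 0.20 RPM in the inputs (4.58 ± 0.23), and miR-789-2-5p went from 21.2 and 27.1 RPM to 3917 and 7820 RPM (7.79 ± 0.34). The mir-789.1 row was smaller, at 3.37 and 4.0 RPM against 0.84 and 0.15 RPM (1.68 ± 0.29). Both mir-789 rows had an input mean below 1 RPM and became members only through the co-IPs. The direction of these 2 precursor rows was thus fixed by the choice of rows. The arm miR-789-3p is listed for both loci, so its reads cannot be divided between them. With a pseudocount of 0.1 the ratios of mir-789.1 and mir-789.2 no longer passed, at adjusted p = 0.0930 and 0.0564. The mir-5592.1 row held 69.5 and 76.7 RPM against 1.84 and 1.41 RPM (4.82 ± 0.15), and the mir-5592.2 row 68.2 and 78.4 RPM against 8.62 and 7.99 RPM (2.99 ± 0.13). These hairpins overlap in the RefSeq annotation, share both mature arms and come from the locus of the sequences shown above, so they are not independent. Their arm miR-5592-3p went from 2.12 and 2.71 RPM to 286.5 and 348.0 RPM (6.54 ± 0.16), and the precursor ratios differed by -1.73 ± 0.22 and -3.55 ± 0.18. These ratios leave out the 23H-RNA sequences named mir-5592. Those summed to 10645 and 13707 RPM in the co-IPs and 81.83 and 73.37 RPM in the inputs.

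The mir-51 row kept pace with its arm. It held 506.0 and 323.6 RPM in the co-IPs against 12.4 and 17.2 RPM in the inputs (4.70 ± 0.26), and miR-51-5p rose by 4.69 ± 0.30. Its ratio difference was 0.03 ± 0.13 (adjusted p = 0.92). The other 4 members of the mir-51 family among the precursor rows were also higher, and the family's range was 0.66 to 4.70.

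Several well-studied microRNAs had smaller differences. The mir-35 row held 451.7 and 292.6 RPM against 110.7 and 102.8 RPM (1.76 ± 0.22), with a ratio difference of -0.06 ± 0.12. The mir-71 row, from a microRNA that acts in lifespan, held 150.9 and 170.1 RPM against 42.5 and 39.7 RPM (1.94 ± 0.12). The rows of the developmental timing microRNAs let-7 and lin-4 held 14.2 and 7.37 RPM against 3.91 and 3.38 RPM, and 32.5 and 22.6 RPM against 10.8 and 7.57 RPM (1.28 ± 0.31 and 1.48 ± 0.24). The rows of mir-58.1 and of the muscle mir-1 did not pass, at 52.4 and 43.0 against 38.2 and 38.3 RPM (adjusted p = 0.079), and at 80.8 and 43.2 against 35.4 and 39.8 RPM (adjusted p = 0.080). The mirtron mir-62, whose hairpin is a spliced intron, held 6.65 and 5.88 RPM against 0.43 and 0.55 RPM (2.28 ± 0.20). The mir-62 row became a member only through the co-IPs, so its direction was fixed by the choice of rows. Without co-IP replicate 2 the rows of mir-58.1 and mir-1 passed, at adjusted p = 0.0087 and 0.0037. Rescaling to the sum of mature microRNAs turned the direction of the let-7, mir-58.1 and mir-1 rows, and under it the higher calls of mir-35, mir-71, lin-4 and mir-243 were lost, at adjusted p = 0.27, 0.061, 0.83 and 0.23.

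Within families, and beside the 6.94% higher and 87.2% lower among all rows, higher rows numbered 4 of 5 in the let-7 family, 2 of 2 in the lin-4 family, 6 of 8 in the mir-35 family, 5 of 5 in the mir-51 family, 3 of 4 in the mir-58 family, 2 of 4 in the mir-64 family and 3 of 3 in the mir-44 family. Among these families mir-41 was the only row called lower. The mir-42 row was not called (-0.70, limma adjusted p = 0.073). Both of its co-IPs, at 7.40 and 3.55 RPM, still lay below both inputs, at 9.60 and 8.48 RPM. The single member of the mir-2 family, mir-250, was not called, and both mirtrons measured were higher. Of 24 members numbered 1000 or above, 17 were higher and 6 lower, but 10 of the 17 had an input mean below 1 RPM and passed the limit only through the co-IPs, so their direction was fixed by the choice of rows. The same holds for 1 higher row of the let-7 family and 1 of the mirtrons. Of the 6 lower rows numbered 1000 or above, mir-4936, mir-4938 and mir-8195 had co-IP means of 0.60, 0.52 and 0.315 RPM. These became members only through the inputs, so their lower direction was also fixed by the choice of rows.

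The mir-41 row stood apart from its neighbours. It held 7.13 and 4.57 RPM in the co-IPs against 37.0 and 41.0 RPM in the inputs (-2.57 ± 0.21, adjusted p = 1.0e-04). The 6 other hairpins of its cluster on chromosome II, mir-35 to mir-40, were all higher. Its arms went in opposite directions, with miR-41-3p at 145.5 and 67.9 against 42.5 and 30.7 RPM (1.44 ± 0.37, adjusted p = 0.011) and miR-41-5p at 98.7 and 352.3 against 570.0 and 735.4 RPM (-1.79 ± 0.57, adjusted p = 0.026).

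The table listed no mature arm for 9 members. Of these, 7 were lower, 1 was higher and 1 was not called, where 87.2% of all rows tested were lower, so the 9 were near the table's background. The 7 include a pair of rows with identical values. The mir-262 row held 10.0 and 13.0 RPM in the co-IPs against 131.5 and 153.5 RPM in the inputs (-3.53 ± 0.17). The mir-260 row held 17.0 and 30.0 RPM against 124.2 and 133.3 RPM (-2.46 ± 0.26). The rows of mir-258.1 and mir-258.2 were that pair, at 14.1 and 12.5 RPM against 63.6 and 66.5 RPM (-2.21 ± 0.13), and counting them once leaves 13 lower rows of 109. The mir-2214 row held 2.47 and 2.61 RPM against 21.7 and 9.90 RPM (-2.15 ± 0.35). With libraries centred on their medians the lower calls of mir-260 and mir-2214 were lost, at adjusted p = 0.13 and 0.42. The higher row was mir-4916, picked out after its values were seen, at 17.0 and 42.5 RPM against 1.16 and 0.82 RPM. Its input mean was 0.99 RPM, so it became a member only through the co-IPs and its direction was fixed by the choice of rows. Of the 11 members whose summed arms stayed below 1 RPM, 6 were higher and 3 lower, but 4 of those 6 had an input mean below 1 RPM and so became members only through the co-IPs. Of the 90 with more arm reads, 68 were higher and 4 lower. The 68 also include rows with an input mean below 1 RPM, such as mir-62 and mir-789.2. Those became members only through the co-IPs, so their direction was fixed by the choice of rows. Over all members, 21 of the 75 higher rows were of that kind. Among the lower rows, mir-4938 and mir-8195, with summed arms below 1 RPM, and mir-4936, with more arm reads, became members only through the inputs. Their direction was fixed in the same way. The shares over all rows were 6.94% higher and 87.2% lower.

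**Figure D3:**
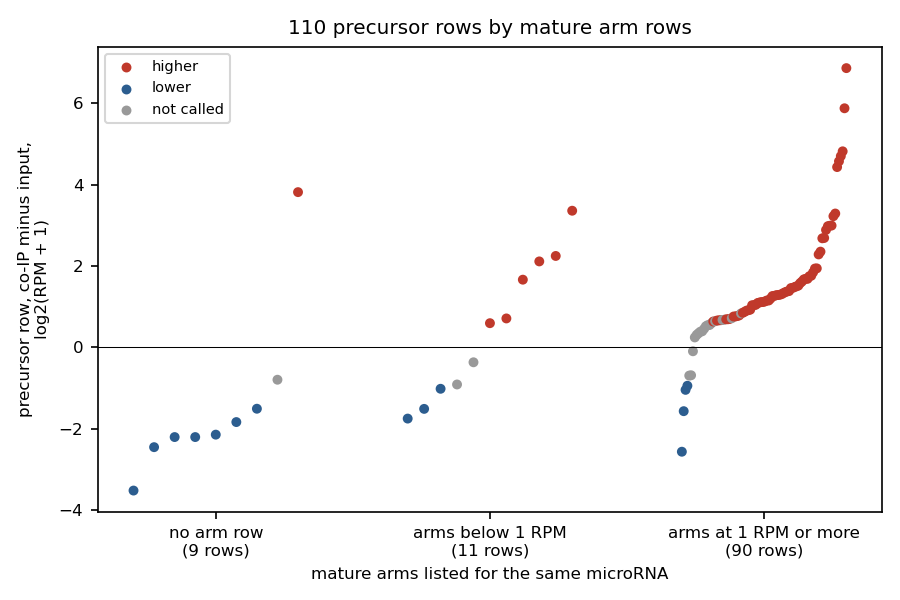
Difference between co-IP and input in log2(RPM + 1) for each of the 110 precursor rows (1 point each, sorted within a group), split by whether the table lists mature arms for the same microRNA and at what summed mean. Of the 9 rows without arms 7 are lower (blue), and of the 90 rows whose arms reach 1 RPM 4 are, where 87.2% of all rows of the table were lower. In each group some higher rows had an input mean below 1 RPM and became members only through the co-IPs. The lower rows of mir-4936, mir-4938 and mir-8195 became members only through the inputs.

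Precursor rows were found in the RDE-1 table alone. Other experiments could therefore be compared only through the mature arms of the same microRNAs, each within its own table. The microRNA Argonautes were tagged with FLAG and GFP at their own loci, as alg-1(ap423) and alg-2(tor139). None of those tables is labelled with pyrophosphohydrolase except that of the rde-1(ne219) adults. With GFP::RDE-1 from animals fed nrfl-1 double-stranded RNA, 47 of 155 arms were higher and 72 lower, against 15.1% and 73.1% of all rows. With GFP::ALG-1 on the empty vector L4440, 62 of 148 were higher and 64 lower, against 3.18% and 95.3%. With GFP::ALG-2 on L4440, 78 of 145 were higher and 43 lower, against 4.14% and 94.5%.

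Of the arms strongly enriched with RDE-1, some had lower shares in the ALG-1 co-IP and others did not. The arms miR-51-5p, miR-358-3p and miR-793, at 4.69, 4.66 and 4.11 with RDE-1, were not called with ALG-1. There they stood at 0.14, 0.14 and 0.54 (limma adjusted p = 0.56, 0.57 and 0.16). In the nrfl-1 RNAi experiment miR-240-5p stood at 7978, 18320 and 15876 RPM in the RDE-1 co-IPs and 131.2, 100.7 and 131.3 RPM in the inputs (6.77 ± 0.33). In the ALG-1 co-IPs it stood at 6.53 and 7.01 RPM against 75.9 and 65.3 RPM in the inputs (-3.20 ± 0.26). The arms miR-789-2-5p and miR-5592-3p were likewise lower with ALG-1 (-2.64 and -2.71) and with ALG-2 (-2.59 and -2.06), whereas miR-243-3p was higher with ALG-1 (1.49) and lower with ALG-2 (-2.70). For the hairpins with the highest precursor rows, miR-238-3p was higher in all of these co-IPs, with 0.76 for ALG-1 (adjusted p = 0.049) and 1.29 for ALG-2, and miR-239a-5p was higher with ALG-1 (1.27) and ALG-2 (0.67) and lower with RDE-1 on nrfl-1 RNAi (-1.13 ± 0.45, adjusted p = 0.035). The differences between tables were not tested.

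**Figure D4:**
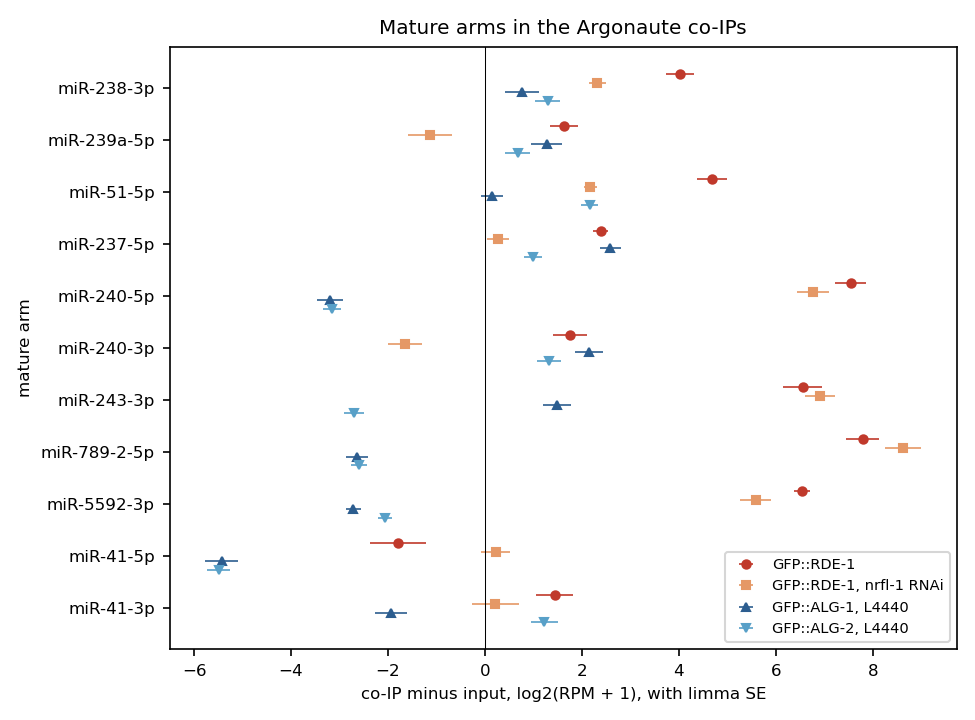
Difference between co-IP and input in log2(RPM + 1) for 11 mature arms (vertical axis) in the RDE-1, RDE-1 with nrfl-1 RNAi, ALG-1 and ALG-2 experiments, with points for limma estimates and bars for their SE. The arm miR-240-5p lies at 7.54 and 6.77 with RDE-1 and at -3.20 and -3.16 with ALG-1 and ALG-2.

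In rde-1(ne219) adults, which carry a mutant RDE-1 and were compared with wild type, 20 of 134 arms were higher and 21 lower, against 39.5% and 12.9% of all rows. Without mutant replicate 3 the higher arms numbered 11, and without wild-type replicate 1 the lower arms numbered 13. The arm miR-240-5p stood at 2.33, 2.81 and 3.93 RPM in the mutant and at 29.5, 31.7 and 20.8 RPM in wild type (-2.81 ± 0.17, adjusted p = 2.43e-07). The opposite held for miR-243-3p, at 69.2, 55.0 and 69.6 RPM in the mutant and 23.1, 22.4 and 18.8 RPM in wild type (1.54 ± 0.11, adjusted p = 6.88e-07). With RNAi of dcr-1, the Dicer gene, against L4440 in rde-1(cmp133) animals, whose columns also name RDE-4::FLAG, 22 of 131 arms were higher and 57 lower, against 17.8% and 3.36% of all rows. Without L4440 replicate 1 the counts were 10 and 32, and without dcr-1 RNAi replicate 1 they were 11 and 32. Among the higher arms was miR-41-5p, at 1113 and 1131 RPM on dcr-1 RNAi against 363.7 and 418.8 RPM (1.52 ± 0.07), while miR-789-2-5p (-1.54) and miR-243-3p (-1.06) were lower.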

How the data were processed

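Small RNA libraries were made by the authors from gel-purified RNA with a NEBNext kit, per the labels' protocols. The deposited RPM values were made by the authors with tinyRNA and Python scripts of their own, as the series' design text states. The RPM denominator, genome build and treatment of reads with several matches are not given in the sources used here. The members, lists and tests were chosen with earlier results of these data known.

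Differences were estimated on log2(RPM + 1) by limma 3.58.1 (R 4.3.3), with a mean-variance trend, over rows with a mean of at least 1 RPM, with two-sided p-values adjusted by the Benjamini-Hochberg method over all rows of a table and a threshold of 0.05. Fold changes on this scale understate those of low rows. The ratio was fitted on log2(precursor RPM + 1) minus log2(summed arm RPM + 1), without a trend. The ALG-1 and ALG-2 fits used all libraries of their tables, the others the groups compared. The fits were tried on simulated data in which most rows did not change. In the RDE-1 comparison itself 87.2% of rows were lower, so that trial cannot decide between the scalings. Arms were joined to precursors by name, and of 193 pairs 191 matched the gene name table, the others being the arms of let-7. Chromosomes are those of RefSeq (WBcel235).

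Named rows were the 6 with the highest mean co-IP RPM, the 6 with the largest and the 6 with the smallest difference, and a list of 12 microRNAs. Precursor fits planned for the other tables were not run, because precursor rows were found in the RDE-1 table alone. Columns of the nrfl-1 RNAi inputs and of dcr-1 RNAi that name a group but no single sample were used as members of that group. Between 86.3% and 93.9% of values up to 2 RPM in the RDE-1 table lay on a common step within 0.0055 RPM, so count tests were not run.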

Additional observations from a re-analysis of the deposited data

Results flagged for a closer look

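In 5 arms of the microRNAs named by the rule above, every RDE-1 co-IP library lay above every input without nrfl-1 RNAi. In the nrfl-1 RNAi experiment every co-IP library of these 5 lay below every input. Arms of other microRNAs did the same, among them miR-1822-3p, miR-259-5p and miR-790-3p, so the pattern is not particular to the 5. The differences in log2(RPM + 1) with nrfl-1 RNAi and without it were -1.65 and 1.75 for miR-240-3p, -0.47 and 2.50 for miR-237-3p, -2.65 and 1.08 for miR-58a-3p, -2.13 and 0.61 for miR-1-3p, and -2.59 and 1.27 for miR-1-5p. Of these, miR-237-3p with nrfl-1 RNAi (limma, adjusted p = 0.15) and miR-1-3p without it (adjusted p = 0.15) did not pass the threshold. The difference between the experiments was not tested. They also differ in the pyrophosphohydrolase label, and mature arms made up 29.4% to 33.0% of the listed RPM in the inputs without nrfl-1 RNAi and 96.0% to 97.4% in those with it.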

How the results depend on the processing

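With 2 libraries a group, counts of precursor rows stayed within 1.5 times the reported ones with a pseudocount of 0.1, with no filter on low values and with any single library left out (61 to 81 higher, 11 to 16 lower), but not under other scalings. Rescaling to the mature microRNA sum gave 27 higher and 41 lower, and centring on library medians gave 4 lower. By construction these scalings shift every row of a library. A pseudocount of 0.1 gave 7 higher and 13 lower ratios of precursor to arms. For the ratios, leaving out a library gave 3 to 13 higher and 16 to 29 lower. For the mature arms in other tables, with alternatives chosen after seeing the data, centring gave 84 higher and 29 lower for RDE-1 on nrfl-1 RNAi, 128 and 5 for ALG-1, 127 and 6 for ALG-2, and 7 and 43 for rde-1(ne219). Without a filter, rde-1(ne219) gave 12 higher, and dcr-1 RNAi gave 5 higher and 14 lower. Leaving out a library gave 11 to 23 higher and 13 to 25 lower for rde-1(ne219), where leaving out mutant replicate 3 gave the 11 and wild-type replicate 1 the 13, and 10 to 21 higher and 32 to 48 lower for dcr-1 RNAi. Rescaling to the mature sum turned the let-7 row to -0.036, the mir-58.1 row to -1.20 and the mir-1 row to -0.87. The ratio of mir-51 ranged from -0.015 (without input replicate 1) to 0.074 with single libraries left out, that of lin-4 from -0.17 (without co-IP replicate 2) to 0.27, being -0.06 without input replicate 1, and that of mir-62 turned to 0.0045 with a pseudocount of 0.1. The cause was not tested. Replicate numbers were not shown to pair the libraries, since deviations of libraries with the same number correlated at 0.036 over all rows. With the replicate number as a block, 82 precursor rows were higher and 18 lower, and 7 and 24 ratios. No paired analysis was possible for nrfl-1 RNAi and dcr-1 RNAi because some columns carry no matched number. The planned precursor fits in 7 other comparisons and the ratio fits in 2 were not run.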
